A study of Homo sapiens with 6 samples.

Results

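The solute carriers are membrane proteins that move nutrients, ions, metals and metabolites across the plasma membrane and the membranes of organelles. Their RNA levels were measured by RNA-seq in T24, an established line of human bladder cancer cells. The genes were chosen by symbol: every row of the deposited table whose current symbol begins with SLC, a family number, the letter A and a member number was taken, except 10 glucose, lactate, cystine and amino acid carriers left out by name. Of 159 matching rows this left 149, among 11079 genes in the table. The symbol rule reads the letter A, so the carriers named SLC35B, SLC35C and the like do not belong to the set, while 3 genes that only carry the prefix do (SLC2A4RG, SLC4A1AP and SLC7A6OS, which are no transporters). The 2 groups of 3 libraries were wild-type T24 cells that stably carried a control short hairpin RNA (shControl) and T24 cells with a BLACAT3 knockdown by a short hairpin RNA (shBLACAT3), both delivered by lentivirus and selected with puromycin. BLACAT3 is a long noncoding RNA of the gene LINC01535. Neither the number of hairpin sequences nor whether the selected cells were clones is given in the sources used here, and the targeted RNA was not analysed here. Replicates are numbered in the labels with no word on separate cultures, and the p-values rest on the spread among these 6 libraries, part of which may be technical.

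Solute carriers are grouped into families by sequence, and most families share a kind of substrate. Most SLC25 carriers sit in the inner mitochondrial membrane and exchange nucleotides, phosphate, amino acids and cofactors with the cytosol. The class of mitochondrial carriers used below takes the whole family, also SLC25A17 and SLC25A46, which are not carriers of the inner membrane. SLC30 and SLC39 proteins move zinc out of and into the cytosol, SLC38 and SLC7 proteins supply amino acids, and SLC35 proteins feed nucleotide sugars to the Golgi. Tumour cells depend on many of them for nutrients and pH control.

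Levels are given in FPKM, a fragment count corrected for the length of the transcript and for the size of the library. The read depth is unknown, because FPKM holds no counts. The values of a library summed to between 211958 and 226953 FPKM. No row had both group means under 0.501, so genes lower than this in both groups were not analysed here. Of 17 genes on a list of urothelial and carcinoma markers, which also holds the mesenchymal gene VIM, 6 were measured. Of these, 3 were lower in every shBLACAT3 library: KRT8 (55.2 to 63.8 FPKM in shControl and 20.04 to 24.7 in shBLACAT3 cells), KRT18 (96.4 to 126 and 68.4 to 78.4) and FOXA1 (2.22 to 2.79 and 1.78 to 1.98). KRT7 (13.6 to 24.2 and 28.6 to 35.5) and PPARG (3.48 to 4.26 and 4.47 to 5.05) were higher in every shBLACAT3 library, and VIM (221 to 274 and 201 to 224) overlapped. Uroplakins, the proteins of differentiated urothelium, were not among them, and neither was any of 9 leukocyte and endothelial markers. The summed level of the 6 markers was 427 to 485 FPKM in shControl and 339 to 356 in shBLACAT3 libraries, with VIM, KRT18 and KRT8 as its largest terms, and the part of the markers in the results was not tested.

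The comparison asked which carriers change when BLACAT3 is knocked down. Of the 149 genes, 128 had a mean of at least 1 FPKM and were tested with limma on log2(FPKM + 1), with p adjusted by Benjamini-Hochberg over all 10008 tested genes. In all, 10 carriers passed an adjusted p under 0.05, 3 higher and 7 lower in shBLACAT3 cells. The higher ones were the mitochondrial carriers SLC25A6, SLC25A21 and SLC25A32. Of these, SLC25A21 had a control mean of 0.875 FPKM and reached the filter only through its knockdown level. The lower ones were the choline carrier SLC44A2, the copper carrier SLC31A2, SLC16A13 of the monocarboxylate family, the taurine carrier SLC6A6, the lysosomal sialic acid carrier SLC17A5, the sugar phosphate carrier SLC37A1 and the iron carrier SLC11A2. These 10 are 7.81% of the tested carriers, next to 9.37% of all tested genes (2.57% higher and 6.8% lower; 25.6% had an unadjusted p under 0.05, as did 31 of the 128), so carriers were called at about the rate of other genes. The groups did not overlap in 42 of the 128 carriers (32.81%), 26 lower and 16 higher, next to 32.8% of all tested genes. The median log2 fold change of the carriers was -0.06, against -0.0025 over all tested genes. Of the 128, 77 (60.16%) had a lower mean in shBLACAT3 cells, next to 50.57% of all tested genes. The counts of lower means by class below are to be read beside that share. The summed level of the 149 genes went the other way, at 1487 ± 27.0 FPKM in shControl and 1518 ± 14.7 in shBLACAT3 libraries (SD, n = 3). Within that sum, the ADP/ATP carriers SLC25A4, SLC25A5 and SLC25A6 together went from 393 ± 13.3 to 445 ± 25.7 FPKM. Their rise was larger than that of the whole sum, so the other carriers together did not rise. On the log2(FPKM + 1) scale, which understates the change of low genes, the changes of tested carriers were small, from -0.67 to 0.43. On this scale 3 tested carriers moved by 1.5-fold or more, of which SLC44A2 and SLC31A2 passed and SLC7A6 did not. By ratio of FPKM means, the called carriers SLC16A13 (0.518) and SLC25A21 (1.73) also moved by more than 1.5-fold.

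**Figure D1:**
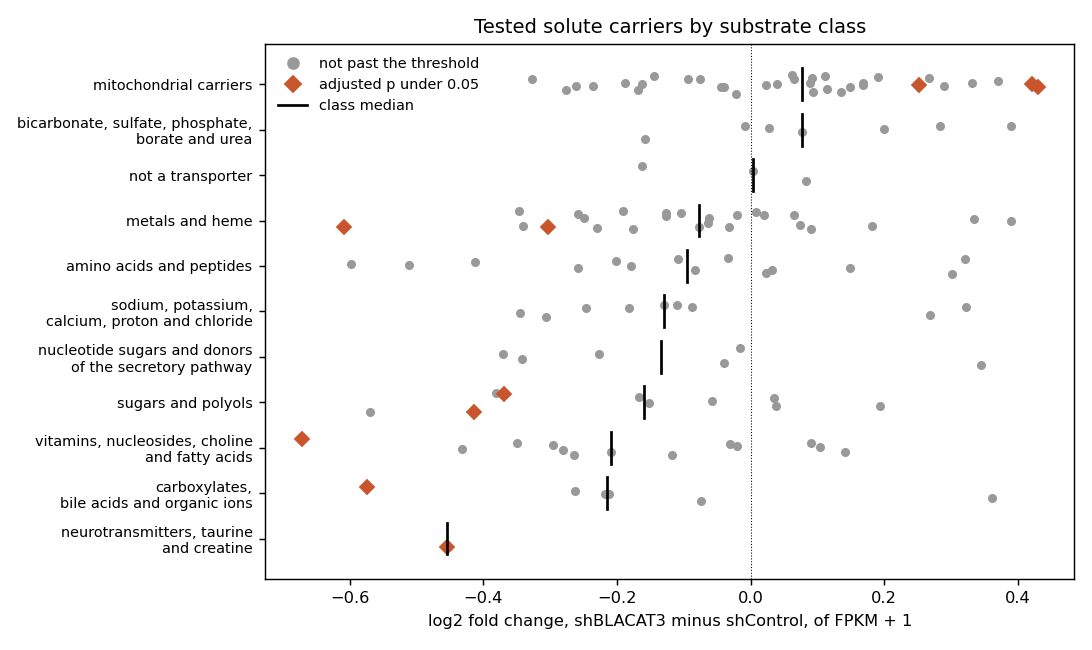
Log2 fold change of FPKM + 1 (x axis, shBLACAT3 minus shControl) of the 128 tested carriers, 1 point each, by substrate class (y axis); diamonds passed an adjusted p under 0.05 and bars are class medians. The 3 higher diamonds are all mitochondrial carriers, and the 7 lower ones lie in 5 other classes.

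Calls among the carriers came and went with single libraries. Leaving out shControl replicate 1, 2 or 3 left 2, 4 and 4 calls, and there were 6 and 7 without shBLACAT3 replicates 1 and 2, and 14 without shBLACAT3 replicate 3. Over all genes the calls moved in the same way, from 357 without shControl replicate 1 to 1339 without shBLACAT3 replicate 3. SLC25A6 and SLC44A2 passed whichever library was left out, and SLC6A6 missed only without shControl replicate 1 (adjusted p 0.0509). The other 7 lost their call without at least 4 of the 6 libraries, and each kept its direction.

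**Figure D2:**
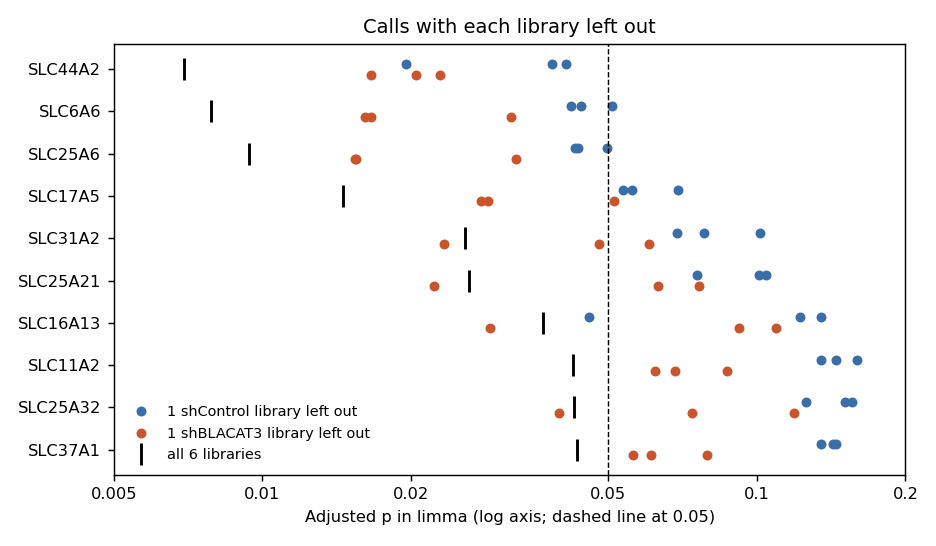
Adjusted p in limma (x axis, log scale) of the 10 called carriers (y axis) with all 6 libraries (black bars) and with each library left out (points, coloured by the group that lost a library). Only SLC44A2 and SLC25A6 have every point left of the dashed line at 0.05.

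Among the 37 mitochondrial carriers, 34 were tested, 3 rose and 0 fell (8.82% called). Of all tested genes 9.37% were called, 2.57% higher. Of the 3 that rose, SLC25A21 reached the filter only through its knockdown level. The median log2 fold change of the 34 was 0.08, and 21 of 34 had a higher mean. SLC25A6, an ADP/ATP carrier that exports ATP from mitochondria, stood at 73.6, 68.6 and 72.9 FPKM in shControl replicates 1, 2 and 3 and at 95.6, 92.3 and 103 FPKM in shBLACAT3 replicates 1, 2 and 3. Every knockdown library lay above every control library, and the spread inside each group was small beside the gap. The means were 71.7 ± 2.68 and 96.9 ± 5.47 FPKM (SD, n = 3), a log2 fold change of 0.43 (SE 0.06, limma adjusted p 0.0094). Leaving out a library moved the adjusted p between 0.0154 and 0.0497.

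SLC25A6 has close relatives that carry the same substrates. SLC25A5, the most abundant of the 149 genes, stood at 313 ± 10.5 and 339 ± 21.2 FPKM (SD, n = 3) with overlapping groups (log2 difference 0.11, 95% interval -0.04 to 0.27, limma adjusted p 0.32). SLC25A4, the form of heart and muscle, stood at 8.57 ± 0.23 and 8.99 ± 0.38 FPKM (limma adjusted p 0.60). Together the 3 genes summed to 378 to 402 FPKM in shControl and 423 to 473 FPKM in shBLACAT3 libraries. These sums did not overlap (two-sided exact permutation p = 0.1, the smallest that 3 against 3 allows). Within a library, SLC25A6 minus SLC25A5 on the log2(FPKM + 1) scale went from -2.11 ± 0.02 to -1.79 ± 0.07 (SD, n = 3), a change of 0.32 with no overlap. The exact permutation p was 0.1, or 0.167 adjusted over the 5 gene pairs examined, which were picked after their values were seen. The 3 genes are similar in sequence, and SLC25A6 lies in the pseudoautosomal region that both sex chromosomes carry, so the split of fragments between copies is uncertain.

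SLC25A21, the carrier of 2-oxoadipate and 2-oxoglutarate, was low, at 0.853, 0.945 and 0.827 FPKM in shControl replicates 1 to 3 and 1.62, 1.59 and 1.33 FPKM in shBLACAT3 replicates 1 to 3. All 3 knockdown libraries were higher, with a mean 1.73 times the control mean (log2 fold change 0.42, SE 0.08, limma adjusted p 0.026). The control mean of 0.875 FPKM was under the filter of 1 FPKM, so SLC25A21 was tested only through its knockdown level. For that reason its p-value is no support for a direction. Its call was lost without shControl replicate 1, 2 or 3 (adjusted p 0.105, 0.0757 and 0.101) and without shBLACAT3 replicate 1 or 2 (0.0764 and 0.0632). SLC25A32, which brings folate and flavin cofactor into mitochondria, stood at 16.9, 16.7 and 17.4 FPKM in shControl and 21.0, 20.6 and 19.7 FPKM in shBLACAT3 replicates 1 to 3. The groups were narrow and did not overlap (log2 fold change 0.25, SE 0.06, limma adjusted p 0.043). This call was lost when any library but shBLACAT3 replicate 3 was left out (0.074 to 0.156).

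Other mitochondrial carriers did not pass. The phosphate carrier SLC25A3 stood at 37.4 ± 0.79 and 41.5 ± 1.97 FPKM (SD, n = 3), higher in each knockdown library (limma adjusted p 0.17). SLC25A28, the iron importer mitoferrin, stood at 11.2 ± 0.46 and 9.26 ± 1.47 FPKM, lower in each knockdown library (log2 difference -0.26, 95% interval -0.53 to 0.01, limma adjusted p 0.21). The 37 genes summed to 677 to 739 FPKM in shControl and 758 to 806 FPKM in shBLACAT3 libraries (exact permutation p = 0.1), and SLC25A5 and SLC25A6 were the largest terms of that sum.

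**Figure D3:**
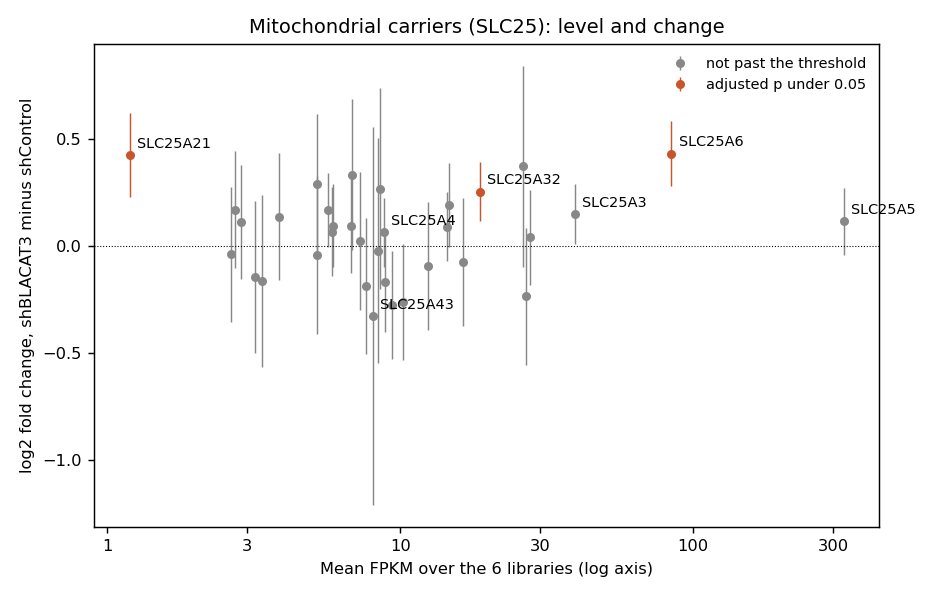
Mean FPKM over the 6 libraries (x axis, log scale) and log2 fold change of FPKM + 1 (y axis, shBLACAT3 minus shControl, bars are 95% intervals from limma) of the 34 tested mitochondrial carriers. SLC25A6, SLC25A32 and SLC25A21 passed, and SLC25A5, the most abundant, has an interval from -0.04 to 0.27.

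Of 14 carriers of vitamins, nucleosides, choline and fatty acids, 13 were tested, 1 fell and 0 rose (7.69% called, next to 9.37% of all tested genes). The class median was -0.21, and 10 of 13 had a lower mean. SLC44A2, a choline transporter-like protein of the plasma membrane and mitochondria, had the largest fall of the tested carriers, from 3.06, 3.24 and 2.70 FPKM in shControl to 1.62, 1.34 and 1.57 FPKM in shBLACAT3 replicates 1 to 3. The knockdown mean was 0.503 times the control mean (3.0 ± 0.28 and 1.51 ± 0.15 FPKM, SD, n = 3). On the log2(FPKM + 1) scale, which understates the change of such low genes, this was -0.67 (SE 0.09, limma adjusted p 0.0069), and with a pseudocount of 0.1 it was -0.94. The related SLC44A1 varied more, between 3.79 and 7.75 FPKM over the 6 libraries, and the difference SLC44A2 minus SLC44A1 overlapped between the groups (exact permutation p = 0.6). SLC29A1, the equilibrative nucleoside transporter, stood at 28.7 ± 0.73 and 21.2 ± 3.42 FPKM and was lower in each knockdown library. It did not pass (log2 difference -0.43, 95% interval -0.70 to -0.16, limma adjusted p 0.064), and did with array weights (0.03) or without shBLACAT3 replicate 3. SLC27A4, a fatty acid transport protein, and SLC19A1, the reduced folate carrier, had overlapping groups (12.3 ± 1.41 and 13.2 ± 1.15, and 1.83 ± 0.16 and 1.38 ± 0.46 FPKM).

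**Figure D4:**
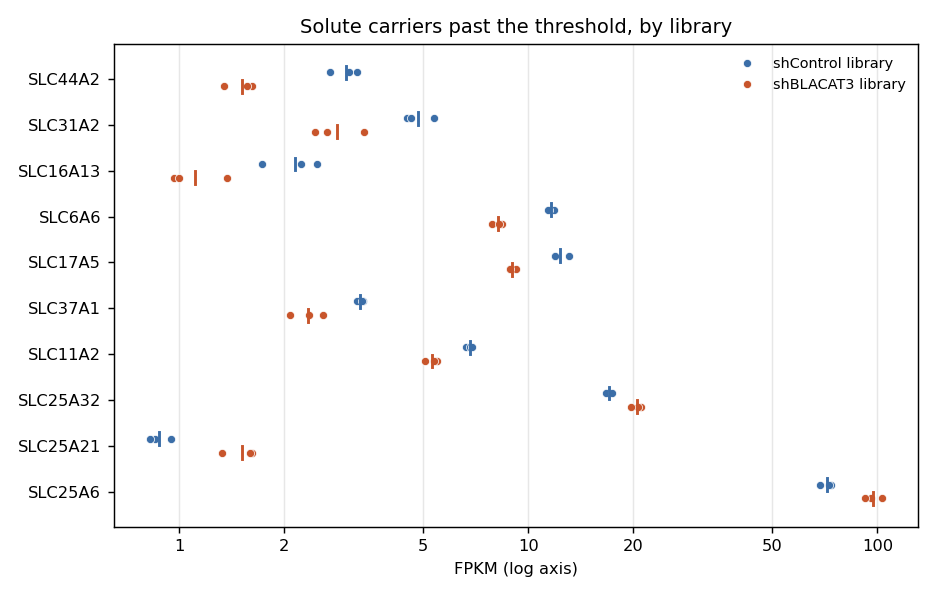
FPKM (x axis, log scale) of the 10 called carriers (y axis) in each of the 3 shControl and 3 shBLACAT3 libraries; vertical ticks are group means. The groups do not overlap in any of the 10, and the levels span from SLC25A21 near 1 FPKM to SLC25A6 at 68.6 to 103.

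Start regions are shown for the tested carriers with the largest fall and the largest rise on the log2(FPKM + 1) scale, SLC44A2 and SLC25A6. By ratio of means SLC25A21 rose more than SLC25A6 (1.73 and 1.35 times the control mean). Also shown is a start of a called carrier, SLC37A1, picked for its motif of interferon regulatory factors. The regions are the 250 bases before a start annotated by RefSeq (GRCh38.p14), on the strand of the gene. Match by symbol was possible for 123 of the 149 genes and 6 of the 10 called ones. SLC44A2 has a pair of annotated starts on the plus strand of chromosome 19 (chr19:10602205-10602454 and chr19:10625303-10625552), and gene-level FPKM cannot tell them apart. SLC25A6 is shown from the minus strand of chromosome X (chrX:1392114-1392363) and SLC37A1 from the plus strand of chromosome 21 (chr21:42513602-42513851). Capitals mark matches to the motif GAAANNGAA of interferon regulatory factors (1 match) and to the NF-kB consensus (2 matches).
SLC44A2, first start: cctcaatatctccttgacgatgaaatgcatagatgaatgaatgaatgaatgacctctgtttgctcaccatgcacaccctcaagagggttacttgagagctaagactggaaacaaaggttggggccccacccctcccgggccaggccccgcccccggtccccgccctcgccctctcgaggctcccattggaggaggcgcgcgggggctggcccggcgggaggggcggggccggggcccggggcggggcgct
SLC44A2, second start: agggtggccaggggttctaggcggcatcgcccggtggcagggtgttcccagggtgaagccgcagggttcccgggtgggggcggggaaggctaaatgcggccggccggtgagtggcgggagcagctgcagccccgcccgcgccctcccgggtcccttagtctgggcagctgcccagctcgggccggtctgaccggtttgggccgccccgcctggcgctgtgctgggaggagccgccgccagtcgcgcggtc
SLC25A6: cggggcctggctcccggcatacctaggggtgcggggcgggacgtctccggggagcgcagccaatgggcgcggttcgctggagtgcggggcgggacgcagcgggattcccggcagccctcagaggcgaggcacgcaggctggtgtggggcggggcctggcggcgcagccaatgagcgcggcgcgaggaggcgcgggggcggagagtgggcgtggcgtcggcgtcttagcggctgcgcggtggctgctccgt
SLC37A1: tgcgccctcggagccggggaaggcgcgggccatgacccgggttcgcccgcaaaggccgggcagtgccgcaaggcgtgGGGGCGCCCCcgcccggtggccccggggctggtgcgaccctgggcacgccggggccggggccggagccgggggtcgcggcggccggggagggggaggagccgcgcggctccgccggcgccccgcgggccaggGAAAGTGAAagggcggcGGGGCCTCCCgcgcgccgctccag

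The 3 starts of SLC44A2 and SLC25A6 held no match to any of 6 motifs in these 250 bases. In the longer windows counted next, which add 50 bases after the start, the first start of SLC44A2 held a match to the NF-kB consensus and the second a match to the antioxidant response form. The motifs were read on both strands in windows of 300 bases, 250 before and 50 after a start, and they may overlap each other. GAAANNGAA stood in 8.11% of all 35114 promoters, in 3.3% of 182 promoters of carriers and in 2 of 11 promoters of called carriers, 1 each of SLC37A1 and SLC11A2. The NF-kB consensus stood in 11.3% of all, in 15.4% of those of carriers and in 4 of the 11. These 4 belong to SLC11A2, SLC44A2 and SLC37A1, the last with more than 1 start. The E-box CACGTG stood in 7.26% of all promoters, in 14.8% of those of carriers and in 0 of the 11. The gamma-activated site TTCNNNGAA stood in 7.66% of all and 0 of the 11, the AP-1 site TGANTCA in 7.71% and 1, and the antioxidant response form TGACNNNGC in 13.3% and 2. Several promoters belong to 1 gene, and a match is a description of letters only. The promoters shown and the motifs were chosen after the values of the carriers were seen. The interferon regulatory factor and NF-kB forms replaced narrower forms after a first count of matches, for reasons of notation, and the counts of the narrower forms are not given.

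The taurine carrier SLC6A6, also an importer of beta-alanine, stood at 11.9, 11.5 and 11.4 FPKM in shControl and 7.89, 8.4 and 8.27 FPKM in shBLACAT3 replicates 1 to 3. Both groups were tight and far apart, with means of 11.6 ± 0.25 and 8.19 ± 0.26 FPKM (SD, n = 3), a log2 fold change of -0.45 (SE 0.06, limma adjusted p 0.0079). The call was lost without shControl replicate 1 (0.0509). The creatine carrier SLC6A8, the other gene of this class, was at 0.596 and 0.489 FPKM and under the filter.

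All 25 metal and heme carriers were tested, 2 fell and 0 rose (8.0% called, near the 9.37% of all tested genes), and 17 had a lower mean (median -0.08). SLC31A2, which takes part in releasing copper from endosomes and lysosomes, went from 5.38, 4.49 and 4.6 FPKM in shControl to 3.38, 2.45 and 2.66 FPKM in shBLACAT3 replicates 1 to 3. The knockdown level was 0.587 times that of the control, with a log2 fold change of -0.61 (SE 0.12, limma adjusted p 0.026). The call was lost without shControl replicate 1, 2 or 3 (adjusted p 0.102, 0.0689 and 0.0783) or shBLACAT3 replicate 2 (0.0605). SLC31A1, the high-affinity copper importer, stood at 15.2 ± 1.05 and 13.8 ± 1.25 FPKM with overlapping groups (limma adjusted p 0.42). The difference SLC31A2 minus SLC31A1 moved by -0.48 on the log2 scale, from -1.47 ± 0.08 to -1.96 ± 0.12 (SD, n = 3), without overlap (exact permutation p = 0.1, 0.167 adjusted over 5 pairs).

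The iron importer SLC11A2 and the iron exporter SLC40A1 were lower in each knockdown library. SLC11A2, also known as DMT1, stood at 6.63, 6.82 and 6.92 FPKM in shControl and 5.48, 5.38 and 5.07 FPKM in shBLACAT3 replicates 1 to 3 (log2 fold change -0.30, SE 0.07, limma adjusted p 0.043). Its call was lost whichever library was left out (adjusted p 0.0622 to 0.16). SLC40A1, or ferroportin, stood at 1.97 ± 0.20 and 1.34 ± 0.14 FPKM (SD, n = 3; limma adjusted p 0.068). The zinc carriers gave 0 calls: of the 10 SLC39 importers 7 had a lower mean, and of the 6 SLC30 exporters 3. The abundant importers SLC39A6 (34.8 ± 2.06 and 30.7 ± 2.71 FPKM) and SLC39A7 (33.0 ± 1.79 and 31.5 ± 1.90 FPKM) overlapped between groups. SLC39A14 and SLC39A8, which also carry manganese and iron, differed by 0.06 (95% interval -0.08 to 0.21) and 0.09 (-0.09 to 0.27) on the log2 scale, and the exporter SLC30A1 by -0.08 (-0.35 to 0.20).

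Of 12 carriers of sugars and polyols, 10 were tested, 2 fell and 0 rose (9.37% of all tested genes were called, 6.8% lower), and 7 had a lower mean (median -0.16). SLC17A5, or sialin, which exports sialic acid from lysosomes, stood at 13.1, 11.9 and 11.9 FPKM in shControl and 8.88, 9.20 and 8.89 FPKM in shBLACAT3 replicates 1 to 3. The mean fell from 12.3 ± 0.69 to 8.99 ± 0.18 FPKM (SD, n = 3; log2 fold change -0.41, SE 0.07, limma adjusted p 0.015). Without shControl replicate 1, 2 or 3 or shBLACAT3 replicate 1 it missed (adjusted p 0.0694, 0.0535, 0.056 and 0.0514). SLC37A1, a glucose-6-phosphate and phosphate exchanger of the endoplasmic reticulum, stood at 3.23, 3.36 and 3.33 FPKM in shControl and 2.58, 2.08 and 2.36 FPKM in shBLACAT3 replicates 1 to 3. Its log2 fold change was -0.37 (SE 0.08, limma adjusted p 0.043), and the call was lost whichever library was left out (0.0562 to 0.145) and under quantile normalization (0.059). SLC37A3, a partner in releasing bisphosphonates from lysosomes, stood at 9.95 ± 0.42 and 9.51 ± 0.23 FPKM and overlapped. SLC50A1, a sugar carrier also called SWEET1, stood at 13.2, 13.1 and 8.4 FPKM in shControl and 7.57, 6.06 and 8.52 FPKM in shBLACAT3 replicates 1 to 3. It did not pass (limma adjusted p 0.12) and did without shControl replicate 3, the low control. The inflammation-linked lysosomal carrier SLC2A6 stood at 2.75 ± 0.22 and 2.86 ± 0.48 FPKM.

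Among 13 carriers of carboxylates, bile acids and organic ions only 6 reached the filter, of which 1 fell and 5 had a lower mean, next to 9.37% of all tested genes called. SLC16A13, of the monocarboxylate carrier family, went from 2.23, 1.73 and 2.49 FPKM in shControl to 0.969, 0.998 and 1.37 FPKM in shBLACAT3 replicates 1 to 3. The knockdown mean was 0.518 times the control mean (log2 fold change -0.57, SE 0.13, limma adjusted p 0.037). The call was lost without shControl replicate 1 or 3 (adjusted p 0.135 and 0.123), without shBLACAT3 replicate 1 or 2 (0.109 and 0.0919) and under quantile normalization (0.0748). SLC10A3 (5.29 ± 0.84 and 7.19 ± 1.86 FPKM), of the bile acid carrier family, and SLC16A9 (4.01 ± 0.25 and 3.32 ± 0.49 FPKM), a carnitine carrier, had overlapping groups.

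Amino acid and peptide carriers gave 0 calls among 14 tested in limma (3 at an unadjusted p under 0.05), next to 9.37% of all tested genes called and 25.6% at an unadjusted p under 0.05, and so few genes tell little about the class. Of the 14, 9 had a lower mean (median -0.10). SLC38A1, a sodium-coupled importer of glutamine, stood at 38.7 ± 1.54 and 48.8 ± 6.40 FPKM (SD, n = 3), higher in each knockdown library (log2 difference 0.32, 95% interval 0.08 to 0.56, limma adjusted p 0.10). SLC36A4, a proton-independent importer of proline and tryptophan, stood at 4.02 ± 0.17 and 5.20 ± 0.42 FPKM, also without overlap (0.074). Both passed without shBLACAT3 replicate 3. SLC7A1, the arginine and lysine importer CAT1, stood at 27.2 ± 1.03 and 30.3 ± 1.47 FPKM (adjusted p 0.20). SLC15A4, a lysosomal histidine and peptide carrier that takes part in endosomal Toll-like receptor signalling, stood at 5.41 ± 0.39 and 4.6 ± 0.71 FPKM (adjusted p 0.32).

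The ion carriers gave 0 calls too, next to the same 9.37%. Of 9 tested carriers of sodium, potassium, calcium, protons and chloride (2 at an unadjusted p under 0.05), 7 had a lower mean (median -0.13). The sodium-potassium-chloride importer SLC12A2 stood at 4.98 ± 0.37 and 6.21 ± 0.64 FPKM (SD, n = 3), higher in each knockdown library (limma adjusted p 0.14), and the Golgi proton exchanger SLC9A8 at 2.1 ± 0.21 and 1.44 ± 0.14 FPKM, lower in each (0.063). Of 7 tested carriers of bicarbonate, sulfate, phosphate and borate (2 at an unadjusted p under 0.05), 5 had a higher mean (median 0.08). They included the phosphate importer SLC20A1 (41.3 ± 2.1 and 47.5 ± 1.89 FPKM, adjusted p 0.11) and the sulfate carrier SLC26A2 (7.59 ± 0.40 and 9.45 ± 0.62 FPKM, 0.075), both without overlap, and the bicarbonate importer SLC4A7 (13.3 ± 1.0 and 18.1 ± 4.14 FPKM), which overlapped. Without shBLACAT3 replicate 3, SLC4A7 passed.

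Carriers that feed the secretory pathway gave 0 calls among 6 tested in limma (2 at an unadjusted p under 0.05), next to 9.37% of all tested genes called. The CMP-sialic acid carrier SLC35A1 stood at 8.45 ± 1.16 and 10.9 ± 0.50 FPKM (SD, n = 3; limma adjusted p 0.097) and the acetyl-CoA carrier SLC33A1 at 4.73 ± 0.27 and 3.55 ± 0.59 FPKM (0.12), both without overlap and in opposite directions. SLC35A4, the most abundant of them, stood at 18.5 ± 0.64 and 18.1 ± 2.16 FPKM. The 3 genes that are no transporters overlapped between groups, with SLC4A1AP at 10.2 ± 0.09 and 10.2 ± 0.71, SLC7A6OS at 7.18 ± 0.05 and 7.70 ± 0.95 and SLC2A4RG at 17.4 ± 2.18 and 15.4 ± 1.06 FPKM.

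The remaining 21 carriers had a mean under 1 FPKM. Of these, 19 had a lower mean in shBLACAT3 cells and 8 did so without overlap, against 0 higher without overlap. Among all 1071 genes under 1 FPKM the groups did not overlap in 33.2% lower and 7.47% higher. In 9 of the 21 the knockdown mean was under 0.5 FPKM and in 0 the control mean was, so these genes are in the table through their control level, and the count is no support for a direction. The lowest ratio of knockdown to control mean, 0.225, was that of SLC1A1, a glutamate, aspartate and cysteine importer. It stood at 1.61, 1.44 and 1.64 FPKM in shControl and 0.279, 0.499 and 0.277 FPKM in shBLACAT3 replicates 1 to 3. SLC44A3, of the choline carrier family, stood at 1.17, 0.741 and 0.794 FPKM in shControl and 0.271, 0.143 and 0.370 FPKM in shBLACAT3 replicates 1 to 3. The drug and cation exporter SLC47A2 stood at 0.557, 0.537 and 0.461 FPKM in shControl and 0.133, 0.191 and 0.276 FPKM in shBLACAT3 replicates 1 to 3, and the ergothioneine and carnitine carrier SLC22A4 at 0.852, 0.618 and 0.678 and at 0.266, 0.350 and 0.389 FPKM. These 4 were named after their values were seen, and no p-value is given for them, since a knockdown level this low needed a higher control level to be in the table. A filter at a mean of 0.1 FPKM, at which 10.7% of 11079 genes were called (8.08% lower), added these 4 to the calls, and for the same reason nothing is read from that.

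**Figure D5:**
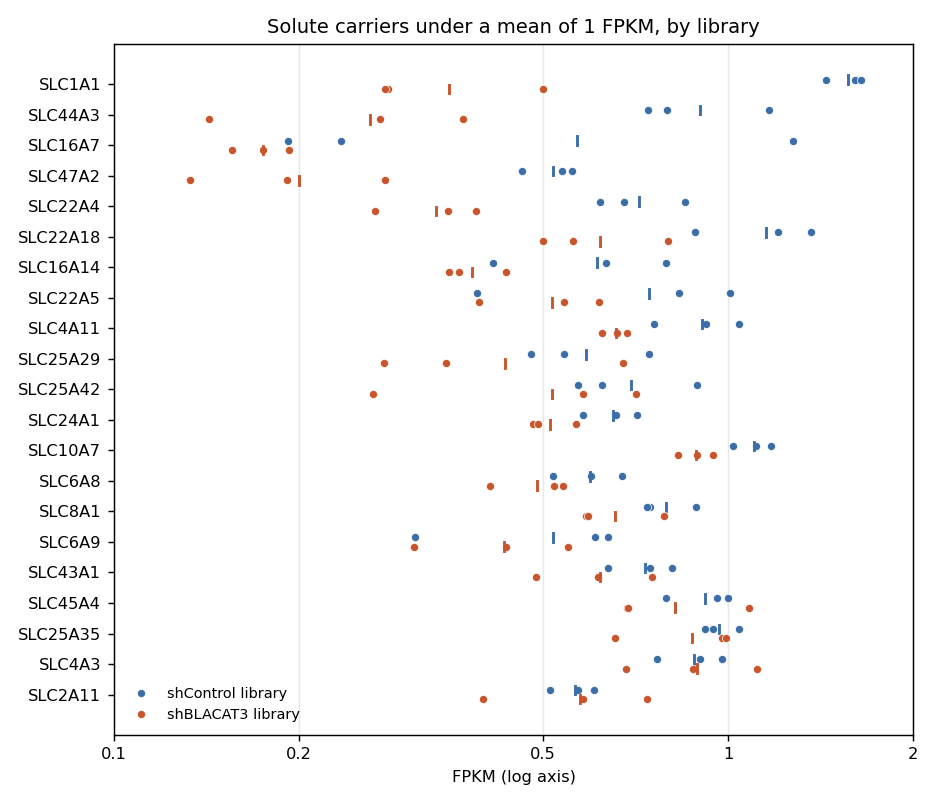
FPKM (x axis, log scale) of the 21 carriers under a mean of 1 FPKM (y axis, ordered by the ratio of group means) in each shControl and shBLACAT3 library; vertical ticks are group means. SLC1A1 at the top has the widest gap, and in SLC16A7 1 shControl library stands apart from the other 5.

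Replicates of 1 group differed by more than 2-fold in 18 of the 149 genes. SLC39A1, an abundant zinc importer, stood at 11.6, 40.8 and 40.8 FPKM in shControl and 10.5, 35.2 and 34.6 FPKM in shBLACAT3 replicates 1 to 3. Replicate 1 was low in both groups, and at each replicate number the shBLACAT3 value was the lower one. The groups overlapped (log2 difference -0.19, 95% interval -1.66 to 1.28 in the fit without the replicate number). SLC7A6, a light chain that exchanges arginine for neutral amino acids, stood at 17.1, 17.4 and 12.01 FPKM in shControl and 17.9, 6.95 and 7.32 FPKM in shBLACAT3 replicates 1 to 3, and passed only without shBLACAT3 replicate 1. SLC16A7, a high-affinity pyruvate carrier, stood at 0.234, 0.192 and 1.27 FPKM in shControl and 0.193, 0.175 and 0.156 FPKM in shBLACAT3 replicates 1 to 3. Its ratio of group means rests on shControl replicate 3. These genes were named after their values were seen, and the cause of the spread was not tested.

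Transport genes that are close to solute carriers but bear other symbols were read in the same fit. Of 46 listed, 30 were found under the symbol listed and 29 were tested. In limma 0 passed (2 at an unadjusted p under 0.05), next to 9.37% of all genes. PQLC1, PQLC2, PQLC3 and DIRC2 on the list are earlier symbols of the carriers SLC66A2, SLC66A1, SLC66A3 and SLC49A4. Those carriers were measured and counted in the classes above, and not here. Their median log2 fold change was -0.06, with a range from -0.31 to 0.28. The list holds the mitochondrial pyruvate carriers MPC1 (5.66 and 5.02 FPKM) and MPC2 (44.7 and 49.2 FPKM), the sideroflexin SFXN1 (27.4 and 24.9 FPKM), which carries serine into mitochondria, and the phosphate exporter XPR1 (9.63 and 11.4 FPKM), given as shControl and shBLACAT3 means. BSG, the chaperone of monocarboxylate carriers, stood at 68.4 and 64.5 FPKM.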

How the data were processed

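Total RNA was turned into stranded libraries, per the labels' protocols. The tools in the submitters' processing notes are cutadapt, HISAT2 2.1.0 and StringTie. Their roles, the genome build and the counting are not stated there. The deposited values were read as FPKM from these tools and from the values, since the header names no unit. NC columns were read as shControl and SH columns as shBLACAT3. Of 11081 rows, 11007 matched a current symbol by identifier, and 2 symbols with several rows were summed over them.

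The test, limma 3.58.1 (R 4.3.3) on log2(FPKM + 1), took genes whose mean reached 1 FPKM (group as the only term, empirical Bayes with a mean-variance trend, two-sided, Benjamini-Hochberg over all 10008 genes, threshold 0.05). The test was checked on simulated data. Intervals are limma's 95% intervals. Substrate classes follow the family, with exceptions by gene. Named genes are the called carriers, the 2 most abundant of each class, the 2 of smallest p in a class without calls, and 19 fixed by name. SLC15A3 was not analysed here, and the values of 1 other named gene are not reported here. The members and lists were chosen with earlier results of these data known, and 1 class entry (SLC4A1AP) after the table was read. Alternatives were the replicate block, a pseudocount of 0.1, a filter at 0.1 and none, median and quantile scaling, no trend, robust moderation, array weights and each library left out. Figures were drawn with matplotlib 3.10.9.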

Additional observations from a re-analysis of the deposited data

How the results depend on the processing

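The 10 carriers called remained called with a pseudocount of 0.1, median scaling and robust moderation, and array weights added SLC29A1. Without the trend 9 of the 10 remained (SLC25A32 missed at 0.0587), and with quantile normalization 8. With the replicate number as a block, 6 of the 10 remained, with 1 higher (SLC11A2, SLC25A21, SLC25A32 and SLC37A1 were lost at adjusted p 0.0903, 0.058, 0.0892 and 0.0898), and the block left 612 calls over all genes in place of 938. The classes then held 1 call each for metals, mitochondrial carriers and sugars. The numbers were not taken to pair the libraries: deviations from the group means correlated at 0.1, 0.117 and 0.09 between libraries of the same number, although each library correlated best with its own number. Filters at 0.1 FPKM and none gave the same 14 calls, 11 lower, with 1 for amino acids, 3 for carboxylates and 2 for vitamins. The 4 added, all lower, have knockdown means under 0.5 FPKM and are in the table through their control level, so they support no direction. Quantile normalization left 0 calls for carboxylates and 1 for sugars, and array weights gave 2 for vitamins.

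With 1 library left out, the calls ranged from 2 to 14, the higher ones from 1 to 7 and the lower ones from 1 to 7. By class these were 0 to 3 for amino acids, 0 to 1 for bicarbonate, carboxylates and taurine, 0 to 1 for metals, 1 to 4 for mitochondrial carriers, 0 to 1 for sugars, 1 to 2 for vitamins and 0 to 1 for the related genes. In this setting some low genes cross the filter of 1 FPKM. The cause of these moves was not tested. No called carrier changed direction in any setting. Unknown depth and 3 libraries per group limit what small differences could be seen.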
